A study of Mus musculus with 12 samples.

Results

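Slc2a1, Slco1c1 and Abcb1a encode transporters that are known for their place in the endothelium of brain vessels, where they are part of the blood-brain barrier. These 3 genes, of the 10749 listed in the deposited table, were chosen by name, with their pattern over the sorted populations already known, so their levels are described below and not tested. All 3 reached the minimum for testing (0.767 CPM, reads relative to the library total) in all 12 libraries. In those libraries the 3 genes were higher in the cells sorted as niche than in the cells sorted as stem or progenitor. The ratio of niche to stem means was 11.4 for Slc2a1, 6.47 for Slco1c1 and 5.85 for Abcb1a on values scaled between libraries, and 5.94, 4.09 and 3.76 on the deposited scale. The ratio of niche to progenitor means was 6.35, 4.18 and 8.45 on scaled values, and 3.36, 2.61 and 5.36 on the deposited scale.

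The cells of the brain's capillaries are sealed to each other by tight junctions, so that polar nutrients enter the brain only through carriers and many lipophilic compounds are pumped back into the blood. Slc2a1 encodes GLUT1, the glucose carrier of barrier endothelium, also present in astrocytes. Slco1c1 encodes OATP1C1, an organic anion carrier with a preference for thyroxine, present in brain endothelium and, in rodents, in choroid plexus and in astrocytes. Abcb1a encodes one of the rodent P-glycoproteins, exporters that use ATP to return drugs and other lipophilic substrates to the blood. Mice carry a second P-glycoprotein gene, Abcb1b, close to it.

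The samples came from the dentate gyrus of mice aged 8 weeks that carry the transgene Tg(Lpar1-EGFP)GX193Gsat, called LPA1-GFP, in which green fluorescent protein (GFP) reports the gene of the lysophosphatidic acid receptor LPA1. The strain came from an FVB/N-Swiss Webster background and was rederived into C57BL/6, and all 12 libraries share this genotype and age. Cells with GFP, EGFR and Prominin1 together made up the stem libraries, GFP-positive cells that lacked EGFR, Prominin1 or both the progenitor libraries, and cells without GFP the niche libraries. Each group had 4 libraries, made from amplified RNA of 1000 cells. The niche gate is defined only by the absence of GFP, so these libraries pool all other cells of the tissue that were sorted. The design text says that the 3 populations were taken from each of 4 replicates, without saying whether a replicate was an animal, a pool or a sort, so p-values measure only the spread between these libraries, which may be technical.

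The start regions of the 3 genes are shown here because the genes were high in the same libraries. Sequences are from RefSeq on GRCm38.p6 and all 3 symbols matched. Each runs from 250 bases before to 50 bases after the RefSeq start, on the plus strand, at chr4:119108495-119108794 for Slc2a1, chr6:141524104-141524403 for Slco1c1 and chr5:8566841-8567140 for Abcb1a. Capitals mark every match, on either strand, to GGGCGG (the GC box), ACGTG (the core of the hypoxia element), TATAAA (the TATA box), CTTTGA (the core of the TCF and LEF element) and CCGGAA (the core of an ETS element).
Slc2a1: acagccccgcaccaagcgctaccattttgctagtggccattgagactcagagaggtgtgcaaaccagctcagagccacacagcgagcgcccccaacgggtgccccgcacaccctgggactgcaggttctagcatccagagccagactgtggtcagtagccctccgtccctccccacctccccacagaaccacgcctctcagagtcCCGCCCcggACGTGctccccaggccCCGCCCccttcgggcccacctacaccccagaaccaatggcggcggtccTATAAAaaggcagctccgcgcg
Slco1c1: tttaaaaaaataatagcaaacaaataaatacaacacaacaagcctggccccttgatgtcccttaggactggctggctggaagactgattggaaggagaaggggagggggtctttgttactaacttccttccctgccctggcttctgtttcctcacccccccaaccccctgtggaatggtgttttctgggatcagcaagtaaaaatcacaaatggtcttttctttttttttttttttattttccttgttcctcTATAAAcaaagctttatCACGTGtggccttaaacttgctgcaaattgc
Abcb1a: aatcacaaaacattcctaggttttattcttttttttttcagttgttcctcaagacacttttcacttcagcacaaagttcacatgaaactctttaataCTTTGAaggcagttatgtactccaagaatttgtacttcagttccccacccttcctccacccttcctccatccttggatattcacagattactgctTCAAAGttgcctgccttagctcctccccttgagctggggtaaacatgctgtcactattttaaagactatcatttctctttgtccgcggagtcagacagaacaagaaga

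The Slc2a1 window was rich in G and C, at 65.3% with 18 CpG dinucleotides, against medians of 52.7% and 7 over all 32851 RefSeq windows of this length. It held GGGCGG at 2 places, both on the minus strand, and 1 ACGTG and 1 TATAAA, the last of these after the start. The Slco1c1 window was at 42.0% with 1 CpG, and held 1 TATAAA just after the start and the palindrome CACGTG, which counts as ACGTG on both strands. The Abcb1a window was at 40.3% with 2 CpG, and held CTTTGA at 2 places, 1 on each strand. No window held CCGGAA. Of all windows, 35.7% held GGGCGG, 19.6% ACGTG, 13.6% TATAAA, 16.003% CTTTGA and 14.9% CCGGAA. In the GENCODE annotation of GRCm38, the genes lie on the plus strand at chr4:119108711-119137983, chr6:141524368-141570177 and chr5:8660077-8748575. For Abcb1a the RefSeq start, at position 8567091, lies upstream of the GENCODE start, so its window belongs to a start outside the GENCODE gene.

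Levels below are RPKM, reads relative to exon length and library total, divided by a scaling factor for each library (TMM, the trimmed mean of M-values), unless the deposited scale is named. Library totals ran from 7597256 to 22854036 reads. The niche libraries differed from the others and among themselves: alpha-globin, a red cell product, accounted for 33.0%, 10.9%, 2.62% and 6.81% of reads in the 4 niche libraries in order of replicate, and at most 0.228% elsewhere. The scaling factor of niche replicate 1 was 0.417, against 0.821 to 1.25 for the other 11 libraries, so scaled levels in that library are well above the deposited ones. With library totals alone, the median log2 difference of all 8427 genes tested became 0.57 in stem against niche, where it was 0.09 with TMM, and 0.62 in progenitor against niche, where it was 0.15. Every value from niche replicate 1 is therefore given on both scales for the 3 genes. Of the sort markers, Egfr was at 34.1 ± 6.34 in stem, 5.60 ± 3.92 in progenitor and 8.51 ± 9.53 in niche (SD, n = 4), while Lpar1 and Prom1 were not analysed here. Among neural genes, Sox2 was at 50.8 ± 11.2, 42.0 ± 6.59 and 42.7 ± 16.3. The 7 listed microglia and macrophage markers had summed levels between 1969 and 7569 in stem, between 116 and 228 in progenitor and between 2650 and 4920 in niche libraries. All 7 were higher in stem than in progenitor, as were 3.67% of all genes tested (6 of 7 without stem replicate 2 or progenitor replicate 1). Over all genes, 7.06% were called in either direction in stem against progenitor, 21.4% in stem against niche (10.8% higher in stem) and 11.3% in progenitor against niche.

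Slc2a1, the glucose carrier gene (ENSMUSG00000028645), had the highest mean of the 3 in niche, though it exceeded Slco1c1 in niche replicates 1 and 2 and not in 3 and 4. In stem replicates 1 to 4 its level was 32.8, 18.5, 26.1 and 15.7. In progenitor it was 38.7, 45.1, 38.9 and 45.3. In niche it was 599, 210, 143 and 116. All 4 niche libraries lay above the other 8, and the lowest niche value was 3.52 times the highest stem value and 2.55 times the highest progenitor value. The niche group was also the most variable, with a span of 5.18-fold against 2.10-fold in stem and 1.17-fold in progenitor. On the deposited scale, niche replicates 1 to 4 were at 249.8, 172, 137 and 101, a span of 2.47-fold. Niche replicate 1 was the highest on either scale.

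The group means of Slc2a1 came to 23.3 ± 7.76 for stem, 42.0 ± 3.68 for progenitor and 267 ± 225 for niche (SD, n = 4). As differences of log2(level + 1), stem against niche was -3.20 ± 0.43 (SE) and progenitor against niche -2.32 ± 0.43. Without niche replicate 1, stem against niche was -2.78. Stem against progenitor was -0.88 ± 0.43. Each SE of a difference, here and below, uses a spread shared by the 3 groups, so this one includes the niche spread. With only stem and progenitor fitted, the difference was -0.85 ± 0.24. Every stem library was below every progenitor library, as was the case for 13.2% of all genes tested. That separation rests on the scaling: the deposited value of stem replicate 1 was 40.6, above 35.5 in progenitor replicate 1. Within each library, Slc2a1 stood above 67.5% to 79.1% of the tested genes in stem libraries, 80.1% to 84.6% in progenitor libraries and 91.6% to 96.6% in niche libraries. This within-library rank needs no scaling between libraries, and the 3 groups did not overlap in it. The share of all genes whose ranks separate in this way was not computed. Slc2a1 was chosen with its pattern known, so nothing is read from this separation.

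Slco1c1, the thyroxine carrier gene (ENSMUSG00000030235), had a level close to that of Slc2a1 in most libraries. In stem replicates 1 to 4 its level was 36.4, 18.2, 21.1 and 23.5. In progenitor it was 14.3, 51.8, 38.0 and 49.4. In niche it was 166, 208, 143 and 126. All 4 niche libraries lay above the other 8, and the lowest niche value was 2.43 times the highest progenitor value. Progenitor replicate 1 stood apart from the other progenitor libraries and was the lowest of all 12. On the deposited scale the gap to niche was narrow, with 69.1 in niche replicate 1 against 64.2 in progenitor replicate 2. The other niche libraries were at 170.5, 137 and 110.0 on that scale, in replicates 2 to 4.

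The group means of Slco1c1 came to 24.8 ± 8.06 for stem, 38.4 ± 17.1 for progenitor and 161 ± 35.4 for niche (SD, n = 4). The log2 difference was -2.67 ± 0.39 (SE) for stem against niche, -2.16 ± 0.39 for progenitor against niche and -0.51 ± 0.39 for stem against progenitor. Stem and progenitor overlapped. Without progenitor replicate 1, the difference between stem and progenitor was -0.90. By rank within the library, Slco1c1 stood above 69.7% to 80.6% of tested genes in stem libraries, 64.8% to 86.0% in progenitor libraries and 90.2% to 94.6% in niche.

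Abcb1a, the P-glycoprotein gene (ENSMUSG00000040584), was the lowest of the 3 in every library. In stem replicates 1 to 4 its level was 3.78, 0.571, 4.83 and 0.604. In progenitor it was 0.646, 2.80, 1.49 and 1.83. In niche it was 14.5, 16.03, 17.0 and 9.72. The niche libraries again lay above the other 8, with the lowest at 2.01 times the highest stem value and 3.47 times the highest progenitor value. The stem libraries fell into a higher and a lower pair, 8.46-fold apart at the extremes. The lowest values rest on 33 reads in stem replicate 2, 44 in progenitor replicate 1 and 45 in stem replicate 4, while niche libraries had 322 to 1264. On the deposited scale niche replicate 1 was at 6.04 and stem replicate 3 at 5.66, so the gap between niche and stem nearly closed there.

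The group means of Abcb1a came to 2.45 ± 2.19 for stem, 1.69 ± 0.892 for progenitor and 14.3 ± 3.24 for niche (SD, n = 4). The log2 difference was -2.38 ± 0.52 (SE) for stem against niche and -2.54 ± 0.52 for progenitor against niche. Stem against progenitor was 0.17 ± 0.52, and leaving out 1 library at a time moved it between -0.17 and 0.46, so it had no steady sign. At these low levels the pseudocount of 1 RPKM shrinks a difference: with 0.1 RPKM, progenitor against niche was -3.13, and with 4 RPKM it was -1.68. By rank, Abcb1a stood above 13.5% to 41.7% of tested genes in stem libraries, 17.2% to 28.4% in progenitor libraries and 54.4% to 66.7% in niche.

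**Figure D1:**
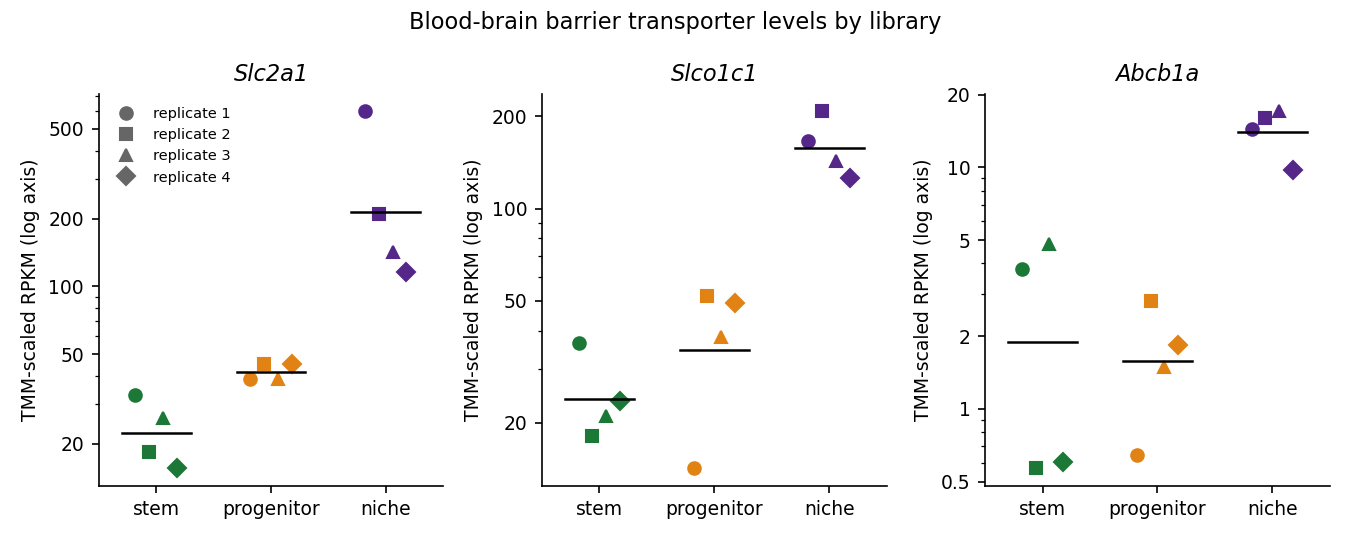
Levels of Slc2a1, Slco1c1 and Abcb1a in each library, as TMM-scaled RPKM on a log axis, with 4 libraries per group and a black line at the mean of log2(level + 1) per group. In each panel the 4 niche libraries (115.6 to 599 for Slc2a1, 126 to 208 for Slco1c1, 9.72 to 17.0 for Abcb1a) sit above all stem and progenitor libraries.

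For the 3 genes, every stem library was below every niche library, a pattern found in 10.3% of all genes tested, and every progenitor library was below every niche library, found in 6.75%. Since the genes were chosen with this pattern known, these shares are given as the background and nothing is read from them. The order of the group means was stem, progenitor, niche for Slc2a1 and Slco1c1, and progenitor, stem, niche for Abcb1a. Stem and progenitor libraries overlapped for Slco1c1 and Abcb1a, so these neighbours in the order were not separated. The differences with niche stayed below 0 under all 21 other settings, from -3.56 to -2.51 for Slc2a1, -2.86 to -1.98 for Slco1c1 and -3.19 to -1.55 for Abcb1a in stem against niche. The ranges for progenitor against niche were -2.71 to -1.67, -2.36 to -1.51 and -3.23 to -1.68. In bulk samples of sorted cells, fewer cells of a type and less RNA per cell cannot be told apart.

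Slc2a1 and Slco1c1 were nearly level with each other in most libraries, while Abcb1a was below both throughout. The ratio of Slc2a1 to Slco1c1 was 0.901, 1.02, 1.24 and 0.665 in stem replicates 1 to 4. In progenitor it was 2.71, 0.872, 1.02 and 0.916. In niche it was 3.61, 1.01, 0.999 and 0.918. Thus 10 libraries lay between 0.665 and 1.24, and replicate 1 of progenitor and of niche stood at 2.71 and 3.61. A ratio within a library does not depend on the scaling between libraries. It does not show which gene departed, and Slco1c1 was the lowest of 4 in progenitor replicate 1 while Slc2a1 was the highest of 4 in niche replicate 1.

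The ratio of Slco1c1 to Abcb1a was lower in niche, at 8.37 to 13.0, than in progenitor, at 18.5 to 26.9, and these groups did not overlap. The share of gene pairs whose ratios separate in this way was not computed. The genes were chosen with their pattern known, so nothing is read from this separation. In stem the ratio was 9.63, 31.8, 4.36 and 38.9, which spans both other groups and follows the pairs seen for Abcb1a. Replicate 1 did not stand apart here, with 22.1 in progenitor and 11.5 in niche. Over the 12 libraries, Pearson's r of log2(level + 1) was 0.89 for Slc2a1 with Slco1c1, 0.85 for Slc2a1 with Abcb1a and 0.90 for Slco1c1 with Abcb1a. After the group means were removed, r was 0.32, 0.43 and 0.57, so most of the likeness between the genes lay between the groups. The points share library depth, scaling and amplification, and these values are descriptions.

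**Figure D2:**
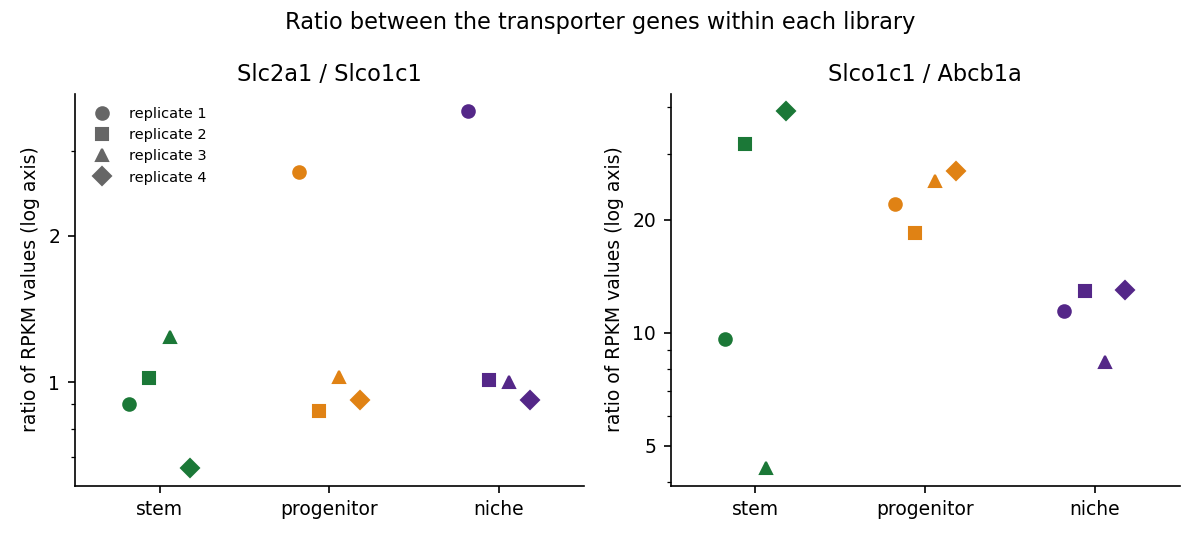
Ratio of RPKM values between the genes within each library, on a log axis, for Slc2a1 over Slco1c1 and Slco1c1 over Abcb1a, with 4 libraries per group and 1 symbol shape per replicate number. In the first panel progenitor replicate 1 (2.71) and niche replicate 1 (3.61) stand above the other 10 libraries (0.665 to 1.24), and in the second the stem libraries spread from 4.36 to 38.9.

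Endothelial genes were detected in all 3 populations, and their summed level was highest in niche. Of 40 endothelial markers, 20 were in the table, and Pecam1, Kdr and Flt1 were not analysed here. The 19 other than Bsg summed to 91.3, 65.6, 46.6 and 28.4 in stem replicates 1 to 4, to 355, 144, 121 and 89.2 in progenitor and to 1437, 752, 572 and 511.6 in niche. Progenitor replicate 1 was thus more than double any other progenitor library in this sum, but it was the lowest for Slco1c1 and Abcb1a. Car4 and Pglyrp1 were the largest terms of the sum in every progenitor and niche library. In progenitor replicate 1 they were at 123 and 103, and in niche replicate 1 at 373 and 438. Some genes of the sum were low in niche replicate 1, among them Emcn at 0.536 and Nos3 at 0. Cdh5, the adhesion molecule of endothelial junctions, was at 0 in stem replicate 4, 0.512 to 1.68 in the other stem libraries, 0.518 to 4.44 in progenitor and 4.31 to 26.2 in niche. Robo4, a receptor of vessels, was at 0 in stem replicates 2 and 4 and in progenitor replicate 1. In niche replicates 1 to 4 Robo4 was at 3.29, 18.2, 9.80 and 0.0405. Niche replicate 4 thus lay below progenitor replicates 2 to 4, at 1.16, 0.280 and 0.653. Bsg, which encodes basigin, a partner of monocarboxylate carriers found in many cell types, was at 84.9 to 177 in stem and 287 to 1548 in niche. In progenitor replicates 1 to 4 Bsg was at 466, 152, 49.1 and 37.1, so replicate 1 lay above the lowest niche library and replicates 3 and 4 lay below every stem library.

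The 19 endothelial genes tested were not the 19 summed: Bsg was tested, and She, which is in the sum, was not. Of the 19 tested, 10 were lower in stem than in niche and 9 were not called. Their median log2 difference was -2.23 against 0.09 for all genes, of which 10.6% were lower. Pglyrp1, a peptidoglycan recognition protein used as a marker of brain endothelium, averaged 8.94 ± 7.11 over stem and 250.6 ± 143 over niche libraries (SD, n = 4), a difference of -4.84 ± 0.63 (SE, limma adjusted p = 6.06e-05). Car4, a carbonic anhydrase on the surface of capillary cells, differed by -5.25 ± 0.59 (limma adjusted p = 1.53e-05). Of the same 19, 9 were lower in progenitor than in niche, with a median of -1.93 against 0.15 for all genes, of which 5.7% were lower. Among them was Spock2, a matrix proteoglycan, at -2.95 ± 0.45 (limma adjusted p = 0.000457). Without progenitor replicate 3 the 9 became 5, and without progenitor replicate 4 they became 4. In stem against progenitor 2 of the 19 were lower, Pglyrp1 and Car4, against 3.39% of all genes. That count was 1 when any of stem replicates 2 to 4, progenitor replicates 1 to 3 or niche replicates 2 to 4 was left out.

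Set against the endothelial sum, the niche libraries no longer stood above the others. The 3 transporters are not among the genes summed, so the values that follow are ratios to the sum, in percent. Since Car4 and Pglyrp1 were the largest terms of the sum in progenitor and niche libraries, the ratios there depend most on them. For Slc2a1 the ratio ran from 28.2% to 56.1% over stem libraries, from 10.9% to 50.8% over progenitor libraries and from 22.6% to 41.7% over niche libraries. The ratio for Slco1c1 ran from 27.7% to 83.0%, from 4.02% to 55.4% and from 11.5% to 27.6% in the same order. That of Abcb1a ran from 0.870% to 10.4%, from 0.182% to 2.06% and from 1.01% to 2.98%. The lowest ratio for each gene was in progenitor replicate 1. The sum and the 3 transporter levels were all highest in niche. Between the other groups they did not all move together. The sum was 28.4 to 91.3 in stem libraries and 89.2 to 355 in progenitor libraries. Mean Abcb1a went the other way, at 2.45 in stem and 1.69 in progenitor, though its libraries overlapped. The part of endothelial cells in these differences was not tested.

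**Figure D3:**
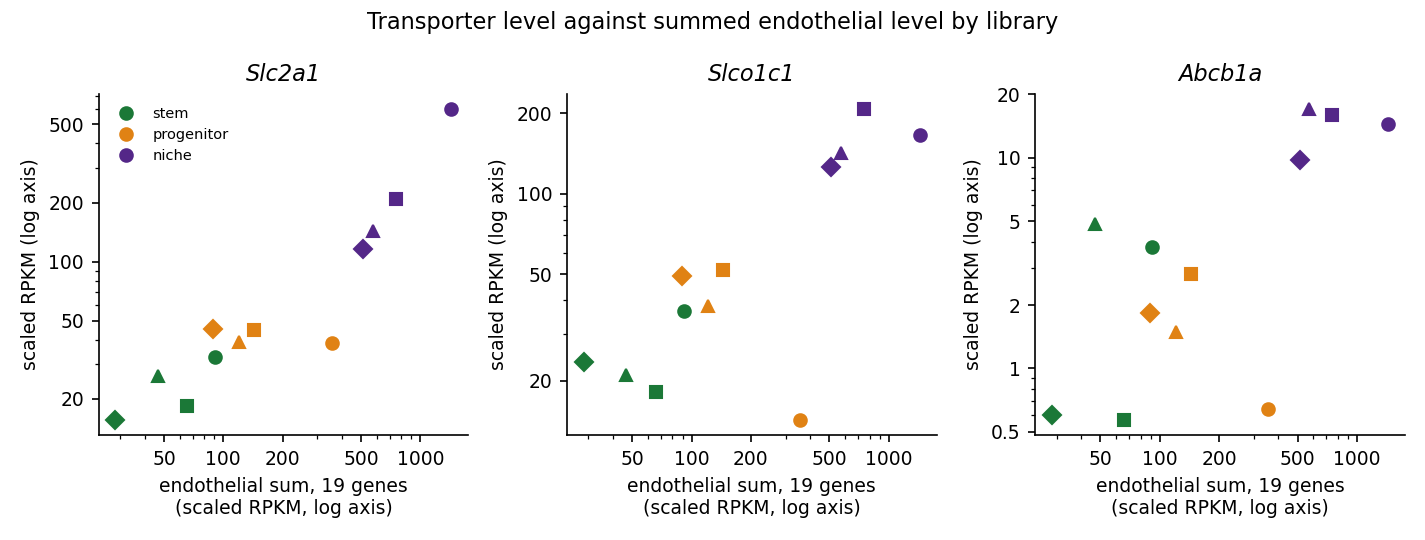
Level of each transporter gene against the summed level of 19 endothelial genes in the same library, both as TMM-scaled RPKM on log axes, coloured by group and with 1 symbol shape per replicate number. Niche libraries are at the upper right (sums of 511.6 to 1437), and progenitor replicate 1 lies to the right of the other GFP-positive libraries (355), at the bottom of the Slco1c1 panel (14.3).

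Markers of other cell types, some of them known to express these carriers, also differed between the populations. Of all genes tested, 10.6% were lower in stem than in niche, 5.7% in progenitor than in niche and 3.39% in stem than in progenitor. Of 10 tested astrocyte genes, 8 were lower in stem than in niche and 3 lower in progenitor than in niche. The summed level ran from 863 to 1384 in stem libraries, from 3786 to 5262 in progenitor libraries and from 5528 to 7413 in niche libraries. Of 7 tested choroid plexus and ependyma genes, 4 were lower in stem than in niche. Against niche, progenitor libraries were lower in 4 and higher in 2, Ccdc153 and Sntn, genes of ciliated cells, where 5.64% of all genes tested were higher. Ttr, the thyroxine carrier protein secreted by choroid plexus, ranged from 13.1 to 69.2 in stem libraries, from 77.8 to 478 in progenitor libraries and from 4104 to 9381 in niche libraries, and Clic6, a choroid plexus gene, was at 0 in all 4 stem libraries and in niche replicate 1. Of 7 tested neuron genes, 6 were lower in stem than in niche, with a median of -3.65, and of 10 oligodendrocyte lineage genes 9 were lower, with a median of -3.55, both further from 0 than the endothelial median. Against niche, progenitor libraries were lower in 4 genes of each of these lists. Of 8 mural cell genes, which mark the pericytes around capillaries, 6 were lower in stem than in progenitor (3 without stem replicate 3 or 4 or progenitor replicate 1). Also 6 were lower in stem than in niche (3 without stem replicate 4). The mural sum ran from 15.4 to 195 in stem libraries, from 723 to 1822 in progenitor libraries and from 634 to 1895 in niche libraries. Progenitor and niche libraries thus overlapped in the mural sum, whereas they did not for the 3 transporters. All 4 tested red cell genes were lower in stem than in niche, with a summed level of 37266 or more in each niche library. The part of these cell types in the transporter levels was not tested.

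Other carriers and exporters of the barrier were measured by a list of 36 genes, without the 3 described here, of which 18 were in the table and tested. In stem against niche 5 were lower and 13 not called, where 10.6% of all genes were lower. The median log2 difference of the 18 was -1.21 against 0.09 for all genes. Slc22a8, the organic anion carrier OAT3, averaged 4.12 ± 3.10 over stem, 24.7 ± 2.63 over progenitor and 52.5 ± 13.2 over niche libraries (SD, n = 4). Stem against niche was -3.67 ± 0.53 for Slc22a8 (SE, limma adjusted p = 0.000138). The other 4 were Slc6a9, a glycine carrier, at -2.54 ± 0.43, Slc29a4, a monoamine carrier, at -2.82 ± 0.87, Slc16a1, the lactate carrier MCT1, at -1.90 ± 0.46, and Abcg2, the breast cancer resistance protein, at -1.76 ± 0.41. Slc29a4 was at 0.836 in niche replicate 1 and 26.3 to 102 in the other niche libraries. Its call was lost in 9 of 21 other settings, including those without stem replicate 2, 3 or 4 or niche replicate 2, 3 or 4 (limma adjusted p from 2.94e-05 to 0.0816).

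Abcg2 exports many of the same drugs as P-glycoprotein, and its levels can be set beside those of Abcb1a. It was at 11.6, 8.42, 8.93 and 5.97 in stem replicates 1 to 4 and at 9.26, 11.2, 9.86 and 7.40 in progenitor. In niche it was at 49.0, 42.2, 19.6 and 23.1, above all other libraries. Abcg2 alone of the 18 was called in progenitor against niche, where 5.7% of all genes were lower, so this count is near the background. Its difference was -1.64 ± 0.41 (SE, limma adjusted p = 0.0172, 0.00652 to 0.0713 over the other settings). That call was lost without progenitor replicate 3 or 4. The count of 1 was 5 without niche replicate 4, 4 without niche replicate 1, 2 without niche replicate 2 and 0 without progenitor replicate 3 or 4. The median of the 18 was -1.02 against 0.15 for all genes in that comparison.

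In stem against progenitor 2 of the 18 were lower, Slc22a8 at -2.65 ± 0.53 (SE, limma adjusted p = 0.00596) and Slc6a9 at -1.53 ± 0.43 (limma adjusted p = 0.0442). The share of all genes lower in that comparison was 3.39%. The call of Slc6a9, and with it the count of 2, was lost in 11 of 21 other settings, among them those without any one stem library, progenitor replicate 2, 3 or 4 or niche replicate 2, and with the replicate number as a block. Not every barrier transporter followed the described genes. Tfrc, the transferrin receptor, was at 14.7, 12.3 and 14.1 on average in stem, progenitor and niche, and Abcc1, an exporter, was at 4.31, 2.98 and 1.89. Neither passed the test in any of the 3 comparisons, which does not show that they were level.

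**Figure D4:**
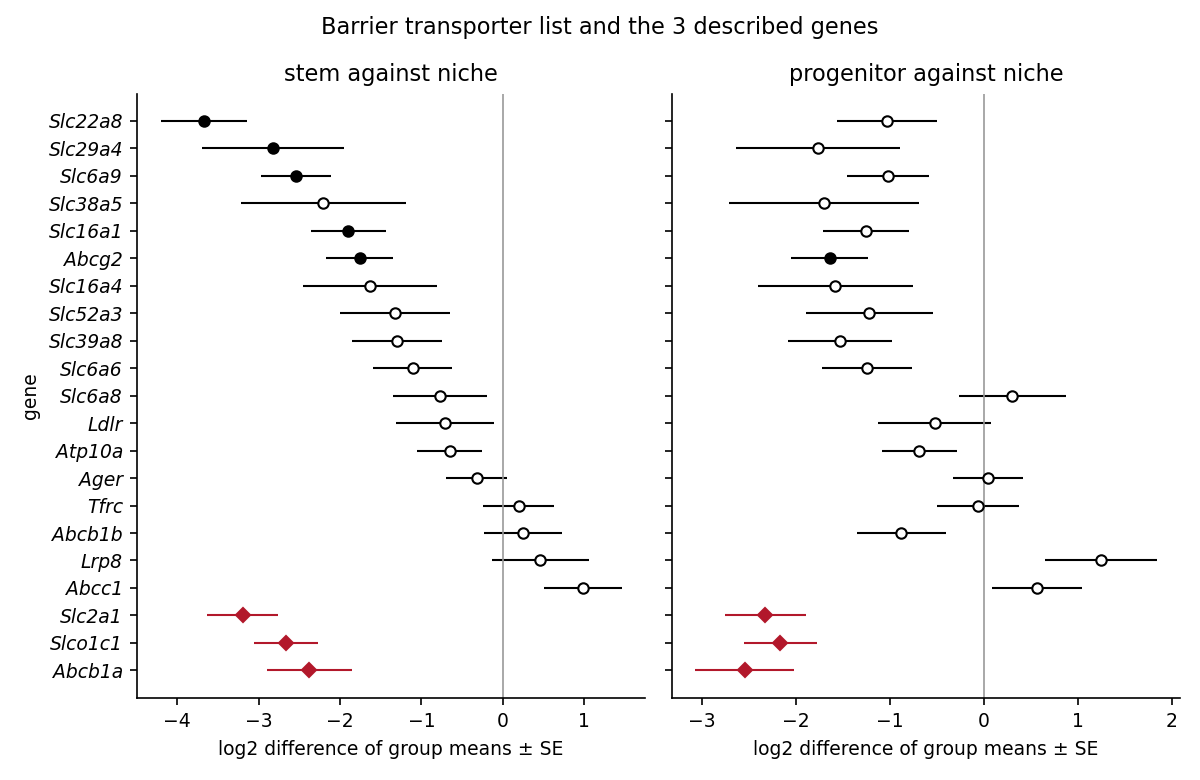
Differences of group means of log2(level + 1), with SE, for 18 barrier transporter genes (circles, filled where the limma adjusted p was below 0.05) and for Slc2a1, Slco1c1 and Abcb1a (diamonds, not tested), in stem against niche and progenitor against niche. The diamonds lie between -3.20 and -2.16, and 5 circles are filled in the first panel and 1 in the second.

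Of the glucose carrier family, Slc2a5, Slc2a10 and Slc2a12 were listed besides Slc2a1. Slc2a5, the fructose carrier GLUT5, which in brain is known as a gene of microglia, ranged from 0.248 to 3.64 in stem libraries, from 0.294 to 4.68 in progenitor libraries and from 41.7 to 279 in niche libraries. Its difference was -4.98 ± 0.65 in stem against niche (SE, limma adjusted p = 6.09e-05) and -5.08 ± 0.65 in progenitor against niche (limma adjusted p = 0.000106). Like Slc2a1, it was highest in niche replicate 1, with 278.8 against 41.7 to 62.6 in the others. Slc2a10 was at 0 in niche replicate 1, 0.135 in niche replicate 2 and up to 13.5 in the other libraries, and Slc2a12 was at 2.53 to 14.1 over all libraries. Among 7 tested genes of glucose and monocarboxylate handling, 1 was higher and 3 lower in stem than in niche. The shares of all genes were 10.8% higher and 10.6% lower. The higher one of the 7 was Txnip, whose protein lowers the amount of GLUT1 at the cell surface. Txnip averaged 348 ± 175 over stem, 77.7 ± 19.99 over progenitor and 90.7 ± 37.9 over niche libraries, a difference of 2.07 ± 0.36 in stem against progenitor (limma adjusted p = 0.00243) and 1.90 ± 0.36 in stem against niche (limma adjusted p = 0.00155).

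Of the organic anion carrier family of Slco1c1, Slco2a1 and Slco4a1 were listed, and Slco1a4, the other carrier of this family known from mouse brain endothelium, was not analysed here. Slco2a1, a prostaglandin carrier, was at 0.138 to 5.24 over the GFP-positive libraries and 0.0397 to 2.04 in niche. Slco4a1 was at 3.27 or lower in all libraries. Both were thus far below Slco1c1 in niche, in RPKM. Among 6 tested genes of thyroid hormone handling, 3 were lower in stem than in niche: Ttr, Thrb, which encodes a thyroid hormone receptor, and Klf9, a known target of that hormone. Without stem replicate 2, 3 or 4 or niche replicate 4 that count was 2. The share of all genes lower in stem than in niche was 10.6%. Klf9 averaged 16.9 ± 2.89 over stem and 43.7 ± 7.89 over niche libraries, a difference of -1.32 ± 0.31 (SE, limma adjusted p = 0.00707), which was lost with library totals in place of TMM (adjusted p = 0.146) and with totals without alpha-globin reads (adjusted p = 0.0502).

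Of the P-glycoprotein family, Abcb1b, Abcb4 and Abcb8 were listed besides Abcb1a. Abcb1b lies at chr5:8798147-8866315 and Abcb4 at chr5:8893717-8959231, just after Abcb1a. The genes are close copies, and how reads shared between them were counted is not given in the sources used here, so their levels are uncertain. Abcb1b ranged from 2.46 to 6.09 in stem libraries, from 0.957 to 1.73 in progenitor libraries and from 0.9996 to 6.68 in niche libraries. Thus Abcb1b overlapped between stem and niche, where Abcb1a did not. In stem replicate 2, Abcb1b was at 6.09 and Abcb1a at 0.571, while in niche replicate 1 Abcb1b was at 0.9996 and Abcb1a at 14.5. Abcb8, a mitochondrial member, was at 3.19 in niche replicate 1 and 14.7 to 39.1 in all other libraries. Of 6 tested exporters of the ABCB, ABCC and ABCG families, 2 were lower in stem than in niche, Abcg1 and Abcg2. The share of all genes lower in that comparison was 10.6%. Abcg1, a cholesterol exporter, averaged 40.9 ± 19.9 over stem and 186 ± 24.97 over niche libraries, a difference of -2.30 ± 0.36 (SE, limma adjusted p = 0.000315).

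Endothelial junctions seal the barrier that these carriers serve. Of 7 tested genes on a junction list, 5 were lower in stem than in niche and 3 lower in progenitor than in niche. The shares of all genes lower in these comparisons were 10.6% and 5.7%. The list also holds Cav1 and Cavin2, genes of caveolae and not of junctions, and Cav1 was among the 5. Cdh5 and Esam, also among the 5, are counted in the endothelial list as well. Cldn5, the main claudin of the barrier, was at 2.17, 6.54, 4.66 and 0.0474 in stem replicates 1 to 4. In progenitor it was at 23.8, 2.65, 1.33 and 1.30, and in niche at 215, 52.3, 38.4 and 7.46. Progenitor replicate 1 thus lay above niche replicate 4 for Cldn5, whereas it was the lowest progenitor library for all 3 transporters on the scaled values. Stem against niche was -3.68 ± 0.95 for Cldn5 (SE, limma adjusted p = 0.0119), and progenitor against niche -3.24 ± 0.95 (limma adjusted p = 0.038, from 0.0073 to 0.113 over the other settings). The second call was lost without stem replicate 1, without progenitor replicate 2, 3 or 4 or without niche replicate 1, 2 or 3. F11r, a junctional adhesion molecule, was at 2.00 to 7.19 in the GFP-positive libraries and 63.6 to 141 in niche, a difference of -4.64 ± 0.45 in stem against niche (limma adjusted p = 4.28e-06). Without progenitor replicate 2, 3 or 4 the count of 3 in progenitor against niche was 1, and without niche replicate 1 it was 2.

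A list of barrier regulators held 12 tested genes, mostly genes of Wnt signalling and endothelial transcription factors. Of these 1 was lower in stem than in niche, Slc35f2, at -2.43 ± 0.67 (SE). Slc35f2 encodes a membrane carrier and belongs to neither of these classes. Its level was 10.2, 0.124, 12.9 and 10.6 in niche replicates 1 to 4 and at most 1.32 in the GFP-positive libraries. Over all genes 10.6% were lower in that comparison, so 1 of 12 is near the background. Without niche replicate 1 the count of 1 was 3. Slc35f2 was also the 1 gene of the 12 called in progenitor against niche, at -2.24 ± 0.67, where 5.7% of all genes were lower. That count was 0 without stem replicate 1, 2 or 3, any one progenitor library or niche replicate 3. Ctnnb1, which encodes beta-catenin, averaged 74.3 ± 10.6 over stem, 68.5 ± 8.62 over progenitor and 73.4 ± 40.6 over niche libraries. Lef1, a partner of beta-catenin in the nucleus, was at 8.93 ± 5.18, 14.1 ± 5.26 and 10.7 ± 5.80. Of 9 tested hypoxia genes, which include known neighbours of Slc2a1 in that response, 1 was lower in stem than in niche, Epas1, which encodes the factor HIF-2alpha of endothelium. Epas1 averaged 5.53 ± 5.18 over stem and 32.9 ± 7.35 over niche libraries, a difference of -2.68 ± 0.51 (SE, limma adjusted p = 0.00148). That 1 of 9 is also near the 10.6% of all genes. Without niche replicate 1 or 3 the count of 1 was 2. In progenitor against niche 2 of the 9 were lower, Epas1 at -1.83 ± 0.51 and Ldha, which encodes a lactate dehydrogenase subunit, at -1.39 ± 0.32. That count was 1 without progenitor replicate 2, 3 or 4 or niche replicate 3 or 4. The share of all genes lower in progenitor than in niche was 5.7%.

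The genes whose pattern over the 12 libraries was most like the mean of the 3 transporters were found by Pearson's r of log2(level + 1) over 12 libraries. Pgrmc1, a haem-binding membrane protein, came first with r = 0.97, with levels of 56.5 to 105 over stem, 94.2 to 108 over progenitor and 202 to 326 over niche libraries. Neu4, a sialidase gene that is 1 of the oligodendrocyte lineage genes above, followed with 0.97. It was at 45.1 to 51.4 in niche and 1.28 or lower in the GFP-positive libraries. After the unnamed gene Gm22408 came Scamp3, Lrrn2, Susd4, Tmem255b, Golga7b, Spon1 and Disp2, with r from 0.95 to 0.96. The 3 genes most like Slc2a1 alone were Jcad, a protein of endothelial junctions, Gm5499 and Wfdc1, at r of 0.97 each. For Slco1c1 they were Plppr1, Bhlhe40 and Neu4, and for Abcb1a Gm22408, Spon1 and Nlgn3. Of 8424 other genes, 115 had r of 0.9 or more with Slc2a1, 54 with Slco1c1 and 26 with Abcb1a. These genes share the libraries and the difference between niche and the other groups.

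Other transcripts lie within these genes. Within Slc2a1 the annotation places Gm12867 and Gm12868 on the other strand and the microRNA gene Mir1957a, and within Abcb1a the unclassified transcripts Gm42684 and Gm42686. Whether the counting used strand is not given in the sources used here, so reads of Slc2a1 and of its antisense partners cannot be told apart.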

How the data were processed

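RNA of sorted dentate gyrus cells was amplified and sequenced with Illumina libraries, per the labels' protocols. The deposited table holds log2 values, which the authors' file does not describe further. They were read as log2(RPKM + 1), since undoing the log gave whole reads for 100.0% of values within 1e-05 reads. Of the exon lengths, 9276 were found from the values themselves, so wholeness is a weaker check there. The build was GRCm38 (mm10), per the submitters' processing notes. The aligner, the counter and its use of strand and the authors' own tests are not stated in any label or header read here.

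RPKM values were divided by TMM factors computed from the recovered reads, and 1 RPKM was added before log2. Genes needed 0.767 CPM in 4 libraries and 15 reads in total, which left 8427. limma 3.58.1 in R 4.3.3 fitted 1 mean per group over all 12 libraries (empirical Bayes with trend and robust spread, Benjamini-Hochberg adjustment over all genes, threshold 0.05, two-sided). The fit was tested on simulated data.

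The 3 genes and all gene lists were chosen with earlier results of these data known. List genes named are up to 4 with the highest levels and up to 3 with the largest called change per comparison; all listed members of the SLC2, SLCO and ABCB families are named. A few others (Clic6, Robo4, Sox2, Tfrc) were named after their values were seen. The 21 other settings changed scaling, filter, pseudocount, test (voom on recovered reads), the libraries fitted or the replicate block. One, library totals without alpha-globin reads, was added after seeing the data. The labels name no molecular identifiers for the amplified reads, so a read number covers counting error only. The design text says that 3 populations came from each of 4 replicates. Deviations of same-numbered libraries were compared as a check of pairing, which 2 of 12 pairs passed, and the fit with a replicate block is an alternative.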

Additional observations from a re-analysis of the deposited data

Results flagged for a closer look

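In each group of 4 libraries, a library was noted when its gap to the nearest other took more of the group's range than Dixon's critical value for 4 libraries. Of 156 groups examined 17 were noted, where about 1 in 20 would be for independent, normally distributed values. The levels and ratios were not put on a log scale, and the groups share the same libraries. The 17 are therefore not read as an excess over chance. Among the transporter ratios, Slc2a1 to Slco1c1 was 2.714 in progenitor replicate 1 (0.872 to 1.02 in the others) and 3.613 in niche replicate 1 (0.918 to 1.01). Slc2a1 to Abcb1a was 41.40 in niche replicate 1 and 8.36 to 13.1 in the others.

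Niche replicate 1 also stood apart for Slc6a9 at 75.75, Esam at 216.0 and Slc2a5 at 278.8, all above the other niche libraries. Progenitor replicate 1 was the highest of its group for Cd34 at 23.61, Cldn5 at 23.85, Vtn at 1161 and Slc2a12 at 12.29. It was the lowest for Slco2a1 at 0.138 and Abcb8 at 22.75. Stem replicate 1 was the highest of its group for Cd34 at 13.51, Esam at 15.47 and Slco4a1 at 1.397. Slc35f2 was at 1.211 in stem replicate 4, and Slco4a1 at 3.270 in niche replicate 3, each above the other 3 libraries. All are levels in TMM-scaled RPKM, and no cause was tested.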

How the results depend on the processing

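Under the 21 other settings no difference of Slc2a1, Slco1c1 or Abcb1a with niche changed sign. With library totals in place of TMM, Slco1c1 was at -1.98 in stem against niche and -1.51 in progenitor against niche, and Abcb1a at -1.98 in the latter. Totals without alpha-globin reads gave -2.20 for Slco1c1 in stem against niche. For Abcb1a in stem against niche, a pseudocount of 4 RPKM gave -1.55 and voom -3.19. For progenitor against niche, 0.1 RPKM gave -3.13, 4 RPKM -1.68 and voom -3.23. Genes called in stem against progenitor (595) became 1419 when only these groups were fitted, 1112 without niche replicate 1 and progenitor replicate 1, and 353 to 1094 with 1 library left out. The lowest was without stem replicate 2 and the highest without niche replicate 1, with 392 without progenitor replicate 1. In stem against niche 1807 became 2996 without both libraries. In progenitor against niche 955 became 1840 with library totals, 540 with only these groups, 1983 without both libraries, and 534 to 1641 with 1 library left out (534 without progenitor replicate 3, 544 without 4, 566 without 2, 1641 without niche replicate 1). With library totals the split of higher and lower calls was 1527 and 313 in progenitor against niche, from 475 and 480, and 2017 and 586 in stem against niche, from 912 and 895. Barrier transporters called in stem against progenitor (2) became 1 without the filter or with 4 RPKM, 4 with only these groups and 1 to 2 with 1 library left out. In progenitor against niche (1) they became 0 with library totals or only these groups, 2 with voom, 4 without both libraries and 0 to 5 with 1 library left out. Endothelial genes called in stem against progenitor (2) became 1 without the filter, with 0.1 or 4 RPKM or with voom, 4 with only these groups and 1 to 3 with 1 library left out. In progenitor against niche (9) they ran from 4 to 10 with 1 library left out. The cause of these moves was not tested. Of 26 calls of single genes from the gene lists that were followed over the settings, 20 held under every setting run. The other 6 were Slc6a9 in stem against progenitor, Slc29a4 and Klf9 in stem against niche, and Abcg2, Cldn5 and Epas1 in progenitor against niche.

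The design text takes 3 populations from each of 4 replicates, and over all genes same-numbered libraries shared little: of 12 such pairs, correlations of deviations from group means ran from -0.125 to 0.207, 2 were over 0.1, and 5 correlated best with their own number. Some quantities did follow the number: in each group replicate 1 had the highest endothelial sum and alpha-globin share, replicate 2 the second highest, and the high ratios of Slc2a1 to Slco1c1 were both in replicate 1. With the replicate block, genes called were 611, 1813 and 946 in the 3 comparisons, and barrier transporters called in stem against progenitor were 1, not 2, because Slc6a9 was lost. It changed no other of the 26 calls. Depth limits Abcb1a most, at 33 to 45 reads in 3 libraries.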

Other observations

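Mitochondrially encoded genes took 15.4% to 25.8% of reads in niche libraries, 9.94% to 11.99% in stem and 9.26% to 14.1% in progenitor. With alpha-globin reads taken out of the library totals, Slc2a1 was at 373, 193, 140 and 108 RPKM in niche replicates 1 to 4, Slco1c1 at 103, 191, 140.5 and 118, and Abcb1a at 9.01, 14.8, 16.8 and 9.10. On this scale too, every niche library was above the highest stem and progenitor values, 56.3 for Slc2a1, 64.2 for Slco1c1 and 5.66 for Abcb1a. The share of all genes that separate on this scale was not computed. The genes were chosen with this pattern known, so nothing is read from it.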
